A study of Mus musculus with 8 samples.

Results

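Antigen presentation was followed through 10 genes, chosen by name for their function, though with earlier results of these data known. These were the class I genes H2-K1, H2-D1, B2m, Tap1, Tapbp and Psmb8, and the class II genes H2-Aa, H2-Ab1, H2-Eb1 and Cd74. They were described among 27998 genes of a single-cell table and 55450 genes of a bulk RNAseq table of the mouse median eminence (ME), the floor of the third ventricle. The single-cell library pooled the ME of 10 female wild-type mice of 2 months, of strain C57BL/6 in the labels and C57BL/6N in the study's methods. The bulk libraries came from the ME of single mice, labelled as C57BL/6 and 2 months old, with 3 of genotype WT (control) and 4 of genotype Rax::BrafV600E mutant (mutant). The study's methods give the mutants as Rax-CreERT2::BrafV600E and the ME as taken 2 months after tamoxifen in adults, which was not reconciled here with the labelled age. In this line tamoxifen lets the Rax promoter, active in tanycytes, switch on an oncogenic Braf allele. Cells outside the Rax lineage are meant to keep an unrecombined allele, but recombination by cell type was not measured here. The sex of the bulk mice was not given in the sources used here.

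MHC class I molecules sit on nearly all nucleated cells and show CD8+ T cells short peptides from inside the cell. The heavy chain (H2-K1 or H2-D1 in these mice) pairs with beta-2-microglobulin (B2m). Peptides are cut by the immunoproteasome (Psmb8), pumped into the endoplasmic reticulum by the Tap1/Tap2 transporter and loaded with the help of tapasin (Tapbp). MHC class II molecules are built from an alpha and a beta chain (H2-Aa with H2-Ab1 form I-A, and H2-Eb1 is the beta chain of I-E), are kept closed by the invariant chain Cd74, and show CD4+ T cells peptides from engulfed material. They belong mainly to dendritic cells, macrophages and B cells. In healthy brain parenchyma class II is scarce, while macrophages at the borders of the brain and next to leaky vessels, such as those of the ME, can carry it. C57BL/6 mice lack an I-E alpha chain, so their H2-Eb1 transcript has no partner.

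Of the 10 genes, 8 lie on chromosome 17 within the MHC (GRCm38, GENCODE M21). H2-K1 (ENSMUSG00000061232) spans 33996017 to 34000347 on the minus strand, and H2-D1 (ENSMUSG00000073411) spans 35262730 to 35267499 on the plus strand. Tap1 (34187553 to 34197225) and Psmb8 (34197721 to 34201454) follow each other on the plus strand. Tapbp runs from 33915899 to 33929292, H2-Ab1 from 34257689 to 34269419 and H2-Eb1 from 34305867 to 34316674 on the plus strand, and H2-Aa from 34282744 to 34287823 on the minus strand. B2m lies on chromosome 2 (122147686 to 122153083, plus strand) and Cd74 outside the MHC. All are protein-coding genes, and counts are per whole gene.

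Class I and class II promoters are known for a shared module that recruits the coactivators Nlrc5 or Ciita. In it an X2-type element (letters TGACG, bound by CREB family factors) precedes a Y box (ATTGG, the reverse complement of CCAAT, bound by NF-Y). The stretches of 180 bases just before the transcription start are shown for members in which the X2-type letters were followed by the Y box letters. H2-Eb1, in which only the Y box letters were found, is shown too, since these genes were measured together in the cells below. Sequences are from RefSeq on GRCm38.p6 and are written 5′ to 3′ on the strand of the gene. They use RefSeq starts, which can lie inside the GENCODE span. Capitals mark the X2-type letters, the Y box letters, the interferon-stimulated element core GAAANNGAAA and the kappaB consensus. The kappaB consensus was searched on the strand of the gene only, and the others on both strands.
H2-K1 promoter, chr17:34000334-34000513, minus strand: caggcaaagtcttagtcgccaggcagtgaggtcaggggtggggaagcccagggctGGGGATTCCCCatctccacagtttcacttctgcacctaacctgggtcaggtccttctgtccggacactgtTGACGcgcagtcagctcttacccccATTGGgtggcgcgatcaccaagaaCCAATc
H2-D1 promoter, chr17:35262914-35263093, plus strand: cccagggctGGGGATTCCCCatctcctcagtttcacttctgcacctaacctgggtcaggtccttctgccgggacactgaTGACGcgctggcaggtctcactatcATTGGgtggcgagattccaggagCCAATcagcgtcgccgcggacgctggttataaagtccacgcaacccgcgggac
B2m promoter, chr2:122147507-122147686, plus strand: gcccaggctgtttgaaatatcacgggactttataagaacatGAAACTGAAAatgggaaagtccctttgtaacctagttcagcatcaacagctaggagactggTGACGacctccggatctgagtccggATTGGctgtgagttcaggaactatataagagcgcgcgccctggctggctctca
H2-Aa promoter, chr17:34287824-34288003, minus strand: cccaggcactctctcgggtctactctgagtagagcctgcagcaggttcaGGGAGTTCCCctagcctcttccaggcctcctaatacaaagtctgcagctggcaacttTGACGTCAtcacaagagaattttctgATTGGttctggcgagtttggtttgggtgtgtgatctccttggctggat
H2-Eb1 promoter, chr17:34305687-34305866, plus strand: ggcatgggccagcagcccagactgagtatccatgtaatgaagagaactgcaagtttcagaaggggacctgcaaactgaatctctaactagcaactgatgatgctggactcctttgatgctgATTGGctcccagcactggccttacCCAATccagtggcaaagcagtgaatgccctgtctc
TGACG was followed by ATTGG in the gene's own direction at a distance of 25 bases, start to start, in H2-K1, H2-D1 and B2m, and of 26 bases in H2-Aa. A pair at 20 to 30 bases occurred in 68 of the 32851 promoters listed, or 0.207%. This pair was defined after the sequences had been read. A promoter was used for 8 of the 10 genes, and those of Tap1, Tapbp, Psmb8 and H2-Eb1 held no such pair. Only exact letters were searched, so a missing pair does not show that the module is absent. The kappaB consensus, searched on the strand of the gene only, was found as 2 overlapping matches in each of H2-K1 and H2-D1. It was found once in H2-Aa and in 5.0% of all promoters, a share that a search of both strands could raise. GAAANNGAAA was in B2m and in 2.98% of all promoters. Single letters of this kind are common, with CCAAT or ATTGG in 33.8% of promoters. TGACG or its reverse complement was in 17.8% of promoters, and a match does not show a bound site.

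The single-cell table held 990 cells with a median of 7832 UMIs (unique molecular identifiers, one per captured transcript). Clustering without the 10 genes and their pathway genes gave 12 clusters of 23 to 242 cells. A level is given as CPM, the UMIs of a gene relative to all UMIs of the cluster, with an exact Poisson 95% interval, which covers counting error only. With 1 library, no test between clusters was possible. The cluster called macrophage- or microglia-like (81 cells) had all 10 of 10 macrophage or microglia markers at 3 times the level of other cells or more. It also had 8 of 8 border macrophage, 6 of 7 microglia and 6 of 8 dendritic cell, 4 of 5 mast cell and 3 of 4 B-cell markers at that ratio, so it is a mixture. The NK- or T-cell-like cluster (31 cells) had 8 of 8 markers. The VLMC-like cluster (180 cells, vascular and leptomeningeal cells) also held 9 of 9 endothelial and 5 of 7 mural cell markers.

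Class I and class II genes had different distributions over cells. The macrophage- or microglia-like cells held 90.5% of the UMIs of the 4 class II genes (3938 of 4349, 95% interval 89.6 to 91.4) but 41.1% of those of H2-K1 and H2-D1 (3293 of 8016). The other heavy chain UMIs lay mainly in VLMC-like cells (1761 UMIs) and NK- or T-cell-like cells (1043 UMIs). Clusters were ordered by H2-K1 and H2-D1 together as NK- or T-cell-like (5829 CPM, 5481 to 6194), macrophage- or microglia-like (4854, 4690 to 5023) and VLMC-like (1419, 1353 to 1486), and their intervals did not overlap. All remaining nucleated clusters lay between 558 CPM (unnamed cluster 11) and 151 CPM (neuron-like, 131 to 174). Erythrocyte-like cells had 38.5 CPM (30.6 to 47.9).

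**Figure D1:**
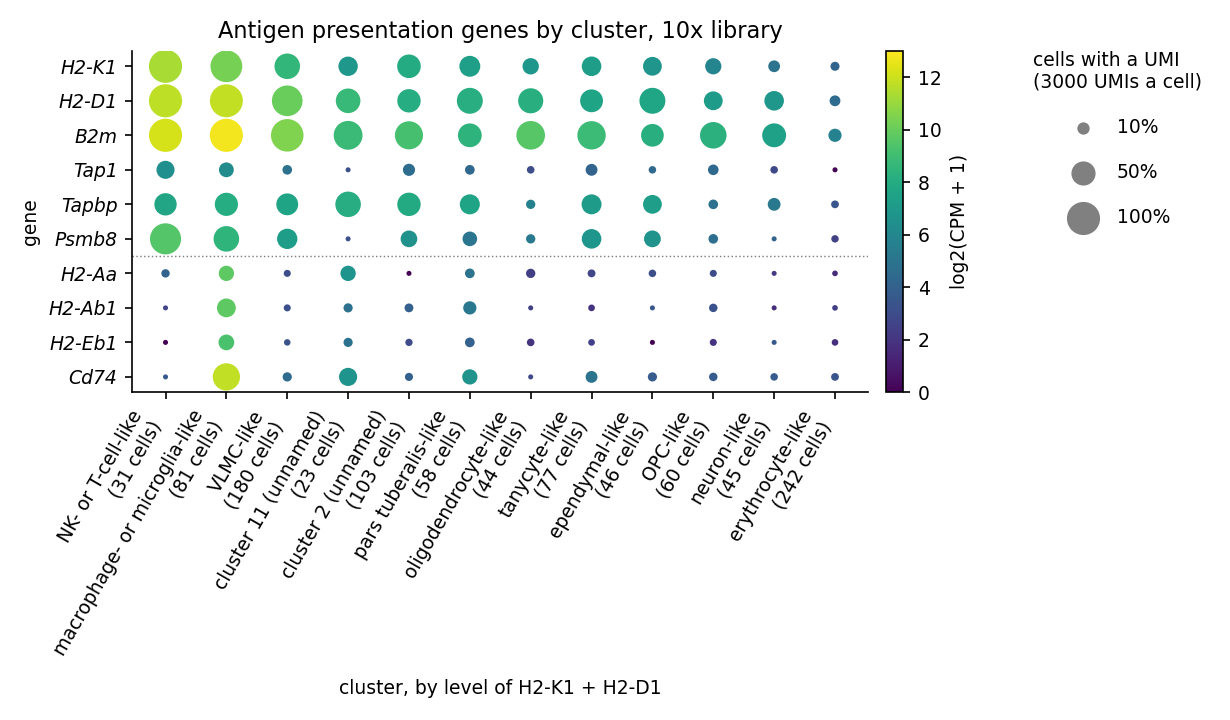
Level (colour, log2 of CPM + 1) and share of cells with a UMI after thinning to 3000 UMIs (dot size) of the 10 genes (y axis) in the 12 clusters (x axis, ordered by H2-K1 and H2-D1). Class I genes above the dotted line had UMIs in every nucleated cluster, though the thinned share was 0 for Psmb8 in neuron-like cells and for Tap1 and Psmb8 in cluster 11, and class II genes below it are high in the 81 macrophage- or microglia-like cells.

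H2-K1 was highest in NK- or T-cell-like cells, at 2543 CPM (2315 to 2788), and was 1257 CPM (1174 to 1345) in macrophage- or microglia-like cells. H2-D1 had the opposite order, with 3597 CPM (3455 to 3742) in macrophage- or microglia-like and 3286 CPM (3026 to 3563) in NK- or T-cell-like cells, whose intervals overlapped. B2m was the most abundant of the 10 genes by UMIs, with 7064 CPM in macrophage- or microglia-like, 4566 in NK- or T-cell-like and 1448 in VLMC-like cells. In neural clusters the same 3 genes formed a low tier. In OPC-like cells (oligodendrocyte precursors) they had 59.6, 139 and 318 CPM, and in tanycyte-like cells 146, 192 and 464 CPM. Neuron-like cells had the lowest values among nucleated clusters for all 3, at 29.6, 121 and 172 CPM.

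The processing genes did not share one order. Psmb8, the inducible proteasome subunit, reached 743 CPM (622 to 881) in NK- or T-cell-like cells, 345 CPM (302 to 392) in macrophage- or microglia-like cells and 111 CPM (92.4 to 133) in tanycyte-like cells. It was 24.1 CPM (14.0 to 38.6) in OPC-like and 15.2 CPM (9.27 to 23.4) in neuron-like cells. Tapbp was spread most evenly, from 273 CPM (211 to 348) in the unnamed cluster 11 and 259 CPM (223 to 301) in macrophage- or microglia-like cells to 26.9 CPM (16.2 to 42.1) in OPC-like cells. In cluster 2, an unnamed cluster with 8 of 10 tanycyte markers, Tapbp was 238 CPM (204 to 276), which overlapped the macrophage interval although H2-D1 there was 265 CPM. Tap1 was sparse, with 182 UMIs in all. It stood at 83.8 CPM (46.9 to 138) in NK- or T-cell-like and 76.7 CPM (57.2 to 101) in macrophage- or microglia-like cells. In erythrocyte-like cells Tap1 had 0 UMIs, and 3 UMIs there would be 1.43 CPM. Of all UMIs in these cells 92.7% were haemoglobin, so this floor is not matched to the other clusters in depth for other RNA.

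Low levels were set beside those of erythrocyte-like droplets. Erythrocyte-like cells carried 0.335 UMIs of H2-K1 and H2-D1 per cell (median depth 7708 UMIs, 92.7% of them haemoglobin). Neuron-like cells carried 4.42 per cell (median 31736) and OPC-like cells 2.33 (median 10554). After thinning each cell to 3000 UMIs, a heavy chain UMI was seen in 11.2% of erythrocyte-like cells (exact binomial interval 7.48 to 15.8), 35.6% of neuron-like cells (21.9 to 51.2) and 24 of 60 OPC-like cells (27.6 to 53.5). Before thinning these shares were 27.7%, 95.6% and 81.7%. No cell was left out, since all had more than 3000 UMIs. Thinning did not match the depth for RNA other than haemoglobin, which erythrocyte-like droplets hold little of. These values therefore do not settle whether the low levels exceed free RNA.

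The balance of the 2 heavy chains also differed between clusters. H2-K1 made up 25.9% of heavy chain UMIs in macrophage- or microglia-like cells (24.4 to 27.4) and 26.1% in VLMC-like cells (24.1 to 28.2). It made up 43.6% in NK- or T-cell-like cells (40.6 to 46.7), 43.2% in tanycyte-like cells (38.1 to 48.5) and 47.7% in cluster 2 (42.6 to 52.9). Neuron-like cells were at the other end, with 19.6% (14.3 to 25.8). The macrophage value did not come from a few cells, as H2-D1 exceeded H2-K1 in 78 of 81 cells and H2-K1 exceeded H2-D1 in 3. In cluster 2, 40 cells had more H2-K1 and 38 more H2-D1. H2-K1 shares 0.570% and H2-D1 12.3% of the 50-base stretches of the last 400 transcript bases with other genes. Reads of H2-D1 could therefore have been lost or gained there. Over the whole longest coding transcript, H2-K1 shares 8.79%, most with H2-D1 and H2-Q1, and H2-D1 shares 14.3%, most with H2-Q1 and H2-Q7. B2m gave 1.46 UMIs per heavy chain UMI in macrophage- or microglia-like and 0.783 in NK- or T-cell-like cells.

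**Figure D2:**
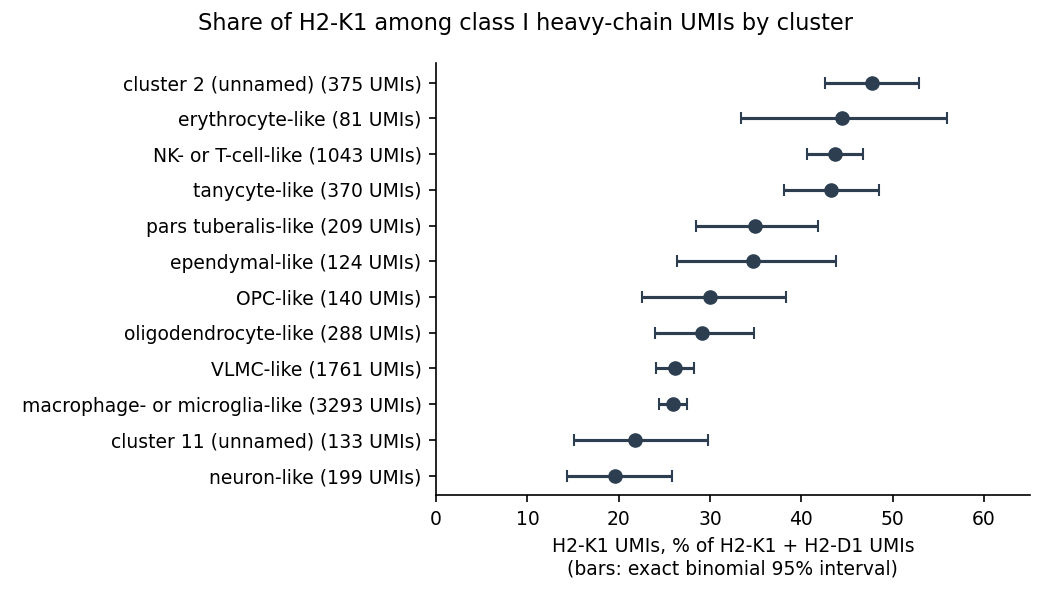
Share of H2-K1 among the UMIs of H2-K1 and H2-D1 (x axis, %) in each cluster (y axis, with its heavy chain UMIs), bars being exact binomial 95% intervals for counting error only. Macrophage- or microglia-like and VLMC-like cells lie near 26%, and NK- or T-cell-like, tanycyte-like and cluster 2 cells between 43.2% and 47.7%.

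Within the VLMC-like cluster, class I genes were present in cells with and without endothelial markers. H2-D1 was 996 CPM (931 to 1063) in 134 cells with no endothelial marker UMI and 1301 CPM (983 to 1689) in 7 cells with over 5 such UMIs. The 7 cells had a median of 2 VLMC marker UMIs, against 150.5 in the 134 cells. In the 39 cells with 1 to 5 endothelial marker UMIs H2-D1 was 1164 CPM (1047 to 1291). H2-K1 was 328 CPM (292 to 368) with none, 490 CPM (415 to 574) with 1 to 5 and 395 CPM (230 to 632) with over 5. The first interval overlapped that of the 7 cells but not that of the 39 cells.

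Class II was abundant in the macrophage- or microglia-like cluster alone. Cd74, which lies on chromosome 18 (60803848 to 60812652, plus strand), reached 3454 CPM there (3315 to 3596), H2-Aa 870 (801 to 943), H2-Ab1 864 (795 to 937) and H2-Eb1 618 (560 to 680). The next clusters were unnamed cluster 11, with 105 CPM of both Cd74 and H2-Aa, and pars tuberalis-like cells, with 102 CPM of Cd74 and 36.0 CPM of H2-Ab1. After thinning, any class II UMI was seen in 67.9% of macrophage- or microglia-like cells (56.6 to 77.8; unthinned 81.5%) and in 4.55% of erythrocyte-like cells (2.29 to 7.99; unthinned 13.2%). The thinned share was 2.22% in neuron-like, 3.23% in NK- or T-cell-like, 6.52% in ependymal-like, 6.82% in oligodendrocyte-like, 7.22% in VLMC-like, 8.33% in OPC-like, 8.74% in cluster 2 and 14.3% in tanycyte-like cells. Intervals of all these thinned shares overlapped that of erythrocyte-like cells. By CPM of the 4 genes together, VLMC-like (45.9, 34.8 to 59.5) and tanycyte-like cells (42.9, 31.5 to 57.0) were above erythrocyte-like cells (18.1, 12.8 to 24.8), with 20 of 57 and 16 of 47 UMIs in a single cell each. Unthinned shares were 62.2% in neuron-like cells (46.5 to 76.2) and 37.7% in tanycyte-like cells (26.9 to 49.4). Erythrocyte-like droplets hold mostly haemoglobin UMIs and are not matched to the other clusters in depth for other RNA, so whether these low values exceed free RNA was not settled. Pars tuberalis-like cells (27.6%, 16.7 to 40.9) and cluster 11 (30.4%, 13.2 to 52.9) were above that of erythrocyte-like cells on the thinned share too. Outside the macrophage cluster 8 of 909 cells had 10 class II UMIs or more, 3 in each of these 2 clusters, with at most 20 in a cell. All 8 also carried a UMI of a macrophage or microglia marker, as did 74.9% of the other 901 cells, and the part of mixed droplets was not tested.

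Among the 81 macrophage- or microglia-like cells, class II UMIs were concentrated in few cells. Per cell the sum of the 4 genes ran from 0 to 853 with a median of 3. It was 0 in 15 cells, 1 to 9 in 37, 10 to 99 in 19 and 100 or more in 10. These 10 cells held 83.8% of the cluster's class II UMIs (3300), and 4 cells were enough to reach 50%. Heavy chain UMIs were far more even, from 5 to 181 per cell with a median of 35, and 20 cells were needed to reach 50%. Cd74 was found in 65 of the 81 cells, H2-Ab1 in 31, H2-Eb1 in 22 and H2-Aa in 21. All 4 genes were found together in 14 cells and a single one in 30.

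The cells rich in class II were not those richest in microglia markers (P2ry12, Tmem119 and others) or in border macrophage markers (Mrc1, Cd163 and others). The 10 cells with 100 class II UMIs or more had a median of 4 microglia marker UMIs and 6.5 border macrophage marker UMIs, against 25 and 0 in the other 71 cells. Dendritic cell markers had 227 CPM in these 10 cells and 118 CPM in the others, with a median of 0.5 and 0 UMIs per cell. The highest cell had 9 dendritic marker UMIs among the 10 and 18 among the others. The cell with 18 had 61 class II UMIs, and another of the others, with 57 class II UMIs, had 9. The line at 100 was drawn after the values were seen, and no cell lay between 61 and 109 UMIs. It was drawn on raw UMIs and was not adjusted for depth. The cell with 109 had 12198 UMIs in all, and the cells with 61 and 57 had 5913 and 5729. Relative to all UMIs of a cell, class II was thus lower in the cell with 109 than in these cells under the line. Of 10 cells with over 30 border macrophage marker UMIs, class II UMIs ranged from 0 to 23 with a median of 1.5. In the same cluster 1 cell was mast cell-like (429 mast cell marker UMIs) and had 0 class II UMIs. Pooled class I levels were of like size on both sides of this line. The heavy chains had 5301 CPM (4843 to 5792) in the 10 cells and 4783 CPM (4608 to 4964) in the other 71, and B2m had 6997 CPM (6468 to 7557) and 7074 CPM (6861 to 7293). The pooled value rests on few cells, as 2 of the 10 held 333 of their 491 heavy chain UMIs. The median per cell was 3066 CPM in the 10 cells (range 1044 to 12461) and 4418 CPM in the other 71 (1333 to 12717), and for B2m 5370 and 6191 CPM. Without these 2 cells, an alternative chosen after seeing the data, the remaining 8 had 2750 CPM of heavy chains (2338 to 3214) and 4178 CPM of B2m (3666 to 4741).

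**Figure D3:**
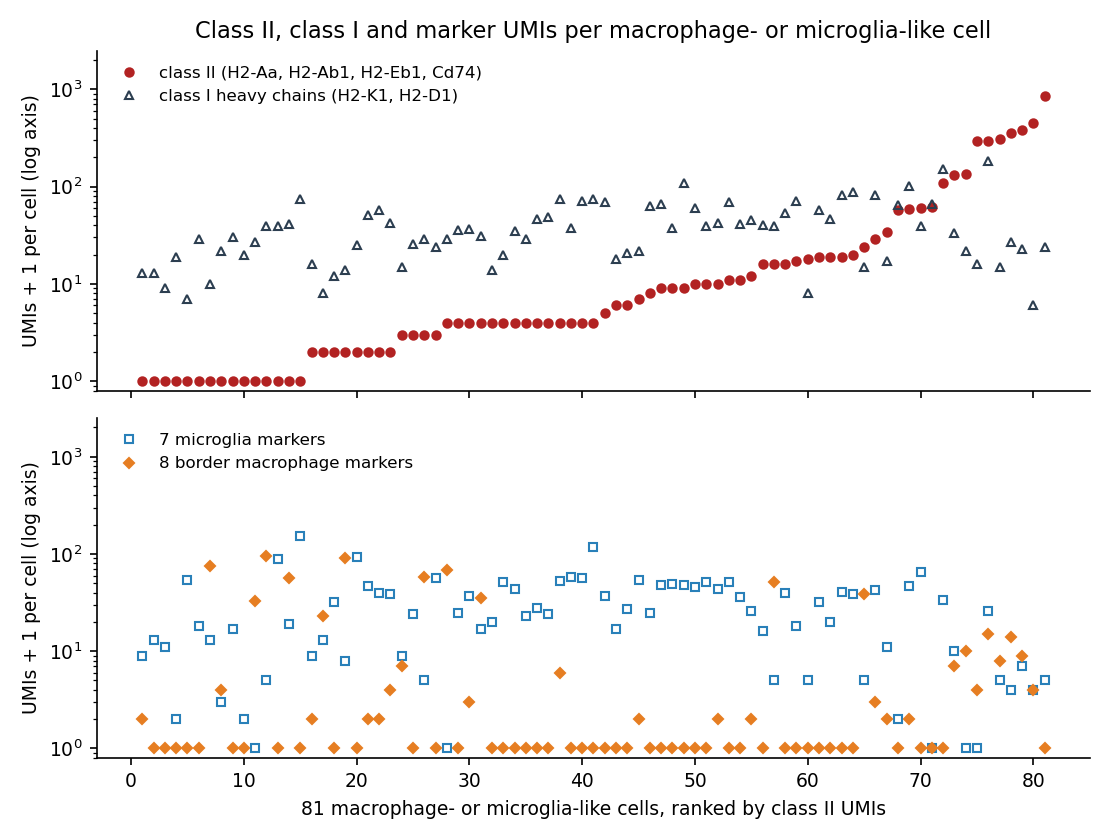
UMIs + 1 per cell (log axes) in the 81 macrophage- or microglia-like cells, ranked by class II UMIs: class II and class I heavy chains above, microglia and border macrophage markers below. Class II runs from 0 to 853 UMIs while heavy chains stay between 5 and 181, and the 10 cells at the right have 0 to 33 microglia and 0 to 14 border macrophage marker UMIs.

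By marker class, cells with UMIs of microglia markers only (46 cells) had 3411 CPM of class II genes (3231 to 3600) and cells with both lists 8112 CPM (7770 to 8465, 30 cells). Only 4 cells had border macrophage markers alone, with 20660 CPM (18749 to 22714), and 1 had neither. These pooled values rest on few cells, and their intervals cover counting error only. In cells with microglia markers only, 1 cell held 853 of 1334 class II UMIs. The 4 cells with border macrophage markers alone had 0, 3, 133 and 292 class II UMIs, with 32, 68, 9 and 3 border macrophage marker UMIs. A Cd74 UMI was seen in 78.3%, 83.3% and 75.0% of the cells of these 3 classes (63.0%, 66.7% and 75.0% after thinning). An H2-Aa UMI was seen in 9 of 46, 9 of 30 and 2 of 4 cells (3, 8 and 2 after thinning), and the intervals of these shares overlapped. Heavy chains were at 5158, 4296 and 4344 CPM.

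Most other pathway genes were also highest in the NK- or T-cell-like or macrophage- or microglia-like cells. Of 20 other class I pathway genes with a UMI, 10 were highest in NK- or T-cell-like cells and 2 in macrophage- or microglia-like cells. Psmb9, the partner subunit of Psmb8, had 268 CPM in NK- or T-cell-like and 155 CPM in macrophage- or microglia-like cells, and the proteasome activator Psme1 had 486 and 333 CPM. The nonclassical class I gene H2-T23 was level in both, at 168 and 165 CPM. Tap2, the other subunit of the transporter, was highest in cluster 2 (172 CPM) and ependymal-like cells (167 CPM), unlike Tap1. H2-Q4 was highest in VLMC-like cells, at 242 CPM. Of 13 other class II pathway genes, 11 were highest in macrophage- or microglia-like cells. Cathepsin S (Ctss), which trims the invariant chain, had 9602 CPM there, the peptide loading factors H2-DMa and H2-DMb1 had 308 and 189 CPM, their modulator H2-Oa 53.1 CPM, the costimulatory Cd86 220 CPM and the thiol reductase Ifi30 214 CPM.

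Of 17 regulators of both classes, 7 were highest in macrophage- or microglia-like and 5 in NK- or T-cell-like cells. Ciita, the class II coactivator, had 7 UMIs in the whole library and Nlrc5, its class I counterpart, 15, so neither could be placed in a cell type. Irf8, a myeloid transcription factor, had 470 CPM in macrophage- or microglia-like and 179 CPM in NK- or T-cell-like cells. The interferon gamma receptor gene Ifngr1 had 877 CPM in NK- or T-cell-like and 529 CPM in macrophage- or microglia-like cells. Irf1 was highest in VLMC-like cells, at 742 CPM. Among 8794 genes with 100 UMIs or more, those most like the summed class II genes over the 12 clusters included Aif1, C1qa, Slc11a1 and H2-DMa (Pearson r of log2(CPM + 1) from 0.914 to 0.925). Those most like the summed heavy chains were Psmb9, Vasp, Lpar6, Serinc3 and H2-T23 (r from 0.915 to 0.937). All points share 1 library.

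In bulk, the 10 genes were compared between control and mutant ME to ask whether the tissue with BrafV600E tanycytes differs in antigen presentation transcripts. The study's methods treat the control ME as normal tissue and the mutant ME as tumour tissue. Library totals ran from 4928456 to 13816596 counts. Between 17874 and 40852 genes had a count, with the fewest in controls 2 and 3 and mutant 1. Values are CPM after TMM normalization, and p-values set the difference between groups against the spread between these mice. In bulk tissue, fewer cells of a type and less RNA per cell cannot be told apart. The label check was limited: Rax was 70.4 ± 63.6 CPM in controls and 82.4 ± 63.9 in mutants (SD), and whole-gene Braf counts do not separate the V600E allele. H2-Ea-ps, the I-E alpha pseudogene of C57BL/6, had 0 to 2 counts in each library. It was looked up after the member values were seen.

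All 10 genes had lower means in mutants, but none passed the test. By edgeR's quasi-likelihood test with Benjamini-Hochberg adjustment, 0 of 20466 genes had an adjusted p under 0.05 (0.0%), and 1661 had an unadjusted p under 0.05. DESeq2 called 376 genes and limma-voom 0, and neither called any of the 10. All 6 class I genes had an unadjusted p under 0.05 with a lower level in mutants, as did 3.89% of all genes tested (4.23% were higher at that p), and none of the 4 class II genes did. The median log2 fold change (mutant minus control) was -1.03 for class I and -0.50 for class II genes, beside 0.13 for all genes, of which 43.3% were lower. Whether the classes differ from each other was not tested. The count of 6 changed with the library left out. It was 1 without control 2 or without mutant 3, 2 without mutant 2, 4 without mutant 4 and 5 without any of the others. The share of all genes lower at an unadjusted p under 0.05 (edgeR) changed too. That share was 2.91% without control 2, 2.25% without mutant 3, 2.09% without mutant 2, 2.23% without mutant 4 and 3.05% to 7.38% without any of the others. The highest library was control 2 for 6 of the 10 genes and control 3 for 4. These controls had few genes detected (21986 and 17874), as did mutant 1 (25910), the highest mutant for all 10 genes. The part of this in the lower values was not tested.

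H2-K1 had 491, 840 and 553 CPM in controls 1 to 3 and 493, 167, 248 and 310 CPM in mutants 1 to 4. Mutant 1 lay just above control 1, and the other 3 mutants were below all controls. The log2 fold change was -1.05 ± 0.38 (SE), with an adjusted p of 0.52 by edgeR. Each SE of a bulk fold change was derived from the fold change and the F statistic of edgeR's test, which gives no SE itself. H2-D1 had 676, 1673 and 1199 CPM in controls and 901, 370, 402 and 600 CPM in mutants. Here too only mutant 1 reached into the control range, and the log2 fold change was -1.06 ± 0.41 (adjusted p of 0.53 by edgeR). B2m had 955, 1181 and 609 CPM in controls and 618, 377, 584 and 613 CPM in mutants, so the groups overlapped at control 3 (log2 fold change -0.74 ± 0.32, adjusted p of 0.60 by edgeR).

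The peptide transporter and tapasin were the 2 members whose groups did not overlap, which held for 3.18% of all genes in this direction and 5.83% in the other. Tap1 had 39.8, 73.0 and 76.0 CPM in controls and 33.5, 21.1, 25.6 and 31.5 CPM in mutants. Its log2 fold change of -1.17 ± 0.33 was the largest of the 10 (unadjusted p of 0.0048, adjusted p of 0.43, edgeR). Tapbp had 255, 348 and 254 CPM in controls and 234, 139, 135 and 126 CPM in mutants (log2 fold change -0.85 ± 0.30, adjusted p of 0.52 by edgeR). For both genes the gap was narrow, between control 1 or 3 and mutant 1. Psmb8 had 33.2, 83.8 and 111 CPM in controls and 52.3, 31.8, 33.2 and 32.9 CPM in mutants. Control 1 stood at the level of 3 mutants (log2 fold change -1.01 ± 0.40, adjusted p of 0.55 by edgeR).

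The class II genes overlapped widely. Cd74 had 222, 444 and 640 CPM in controls and 475, 164, 225 and 406 CPM in mutants, with a log2 fold change of -0.46 ± 0.45 (adjusted p of 0.85 by edgeR). H2-Aa had 140, 257 and 159 CPM in controls and 188, 50.2, 122 and 146 CPM in mutants (-0.55 ± 0.42, adjusted p of 0.80 by edgeR). H2-Ab1 had 118, 228 and 301 CPM against 184, 46.1, 98.7 and 154 CPM (-0.84 ± 0.47, adjusted p of 0.69 by edgeR). H2-Eb1 had 141, 152 and 50.4 CPM against 142, 39.2, 95.9 and 104 CPM (-0.27 ± 0.47, adjusted p of 0.93 by edgeR). Control 3 was the highest library for Cd74 and H2-Ab1 and close to the lowest for H2-Eb1, so class II genes did not rank the controls alike. Mutant 2 was the lowest library for 9 of the 10 genes, all but Tapbp.

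**Figure D4:**
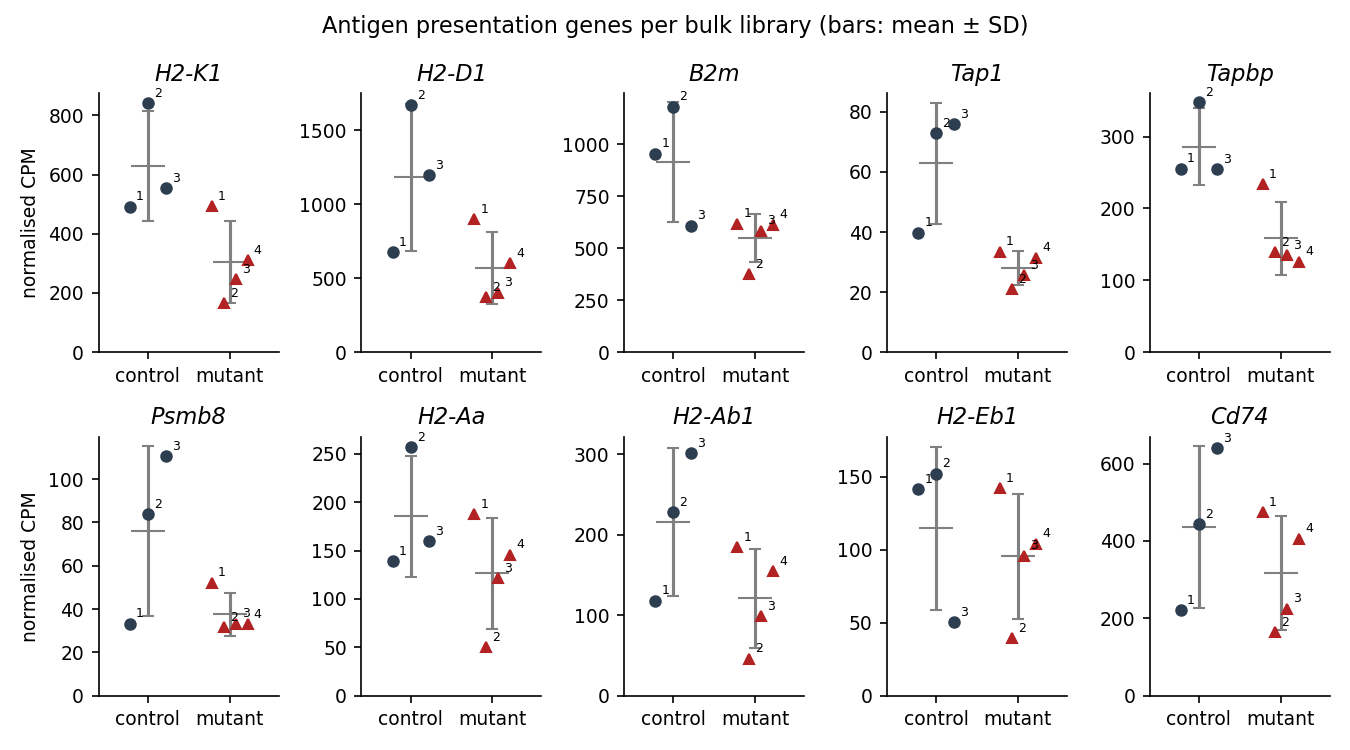
Normalised CPM (y axes, from 0) of the 10 genes in each bulk library, with controls as circles, mutants as triangles, the replicate number beside each point and grey bars for the mean ± SD. Tap1 and Tapbp have no overlap between groups, mutant 1 is the highest mutant for all 10 genes, and mutant 2 is the lowest of all 7 libraries for 9.

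Per kilobase of annotated exon, control levels ran from 1064 ± 335 CPM for B2m, 459 ± 193 for H2-D1, 259 ± 125 for Cd74 and 214 ± 63.3 for H2-K1 down to 22.4 ± 11.6 for Psmb8 and 11.5 ± 3.67 for Tap1 (SD, n = 3). The order of B2m, H2-D1 and H2-K1 was the same as by CPM in every cluster of the single-cell library, so it does not point to a cell type. Neighbours such as Cd74 and H2-K1 did not differ beyond their spread. Exon lengths are unions over all annotated isoforms, which understates genes with rare long isoforms.

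Among all genes tested by edgeR, 43.3% were lower in mutants and 3.89% were lower with an unadjusted p under 0.05. Of the other 20 class I pathway genes tested, 16 were lower in mutants, 5 of them with an unadjusted p under 0.05, and the median log2 fold change was -0.54. Of the named ones, Psmb9 was at -0.69 ± 0.41, Tap2 at -0.41 ± 0.37, Psme1 at -0.38 ± 0.28, H2-T23 at -0.22 ± 0.50 and H2-Q4 at -0.88 ± 0.95. Of 13 other class II pathway genes tested, 7 were lower, 2 with an unadjusted p under 0.05, with a median of -0.08. Ctss was at -1.18 ± 0.47, Cd86 at -0.97 ± 0.49, H2-DMa at -0.68 ± 0.49, H2-DMb1 at -0.39 ± 0.43 and Ifi30 at -0.08 ± 0.57. H2-Oa was at 0.59 ± 1.2 with at most 1.56 CPM. Of 16 regulators tested, 9 were lower, 1 with an unadjusted p under 0.05. Irf8 was at -1.33 ± 0.51, Ifngr1 at -0.36 ± 0.36 and Irf1 at -0.07 ± 0.32. The coactivators had the opposite sign at low counts: Ciita had 30, 10 and 0 counts in controls and 25 to 49 in mutants (1.93 ± 1.26), and Nlrc5 had 54, 14 and 2 against 21 to 46 (1.10 ± 1.07). Controls 2 and 3, with the low counts, are also the libraries with few detected genes, and the part of this in the result was not tested. None of these genes passed adjustment by edgeR (lowest adjusted p of 0.51).

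**Figure D5:**
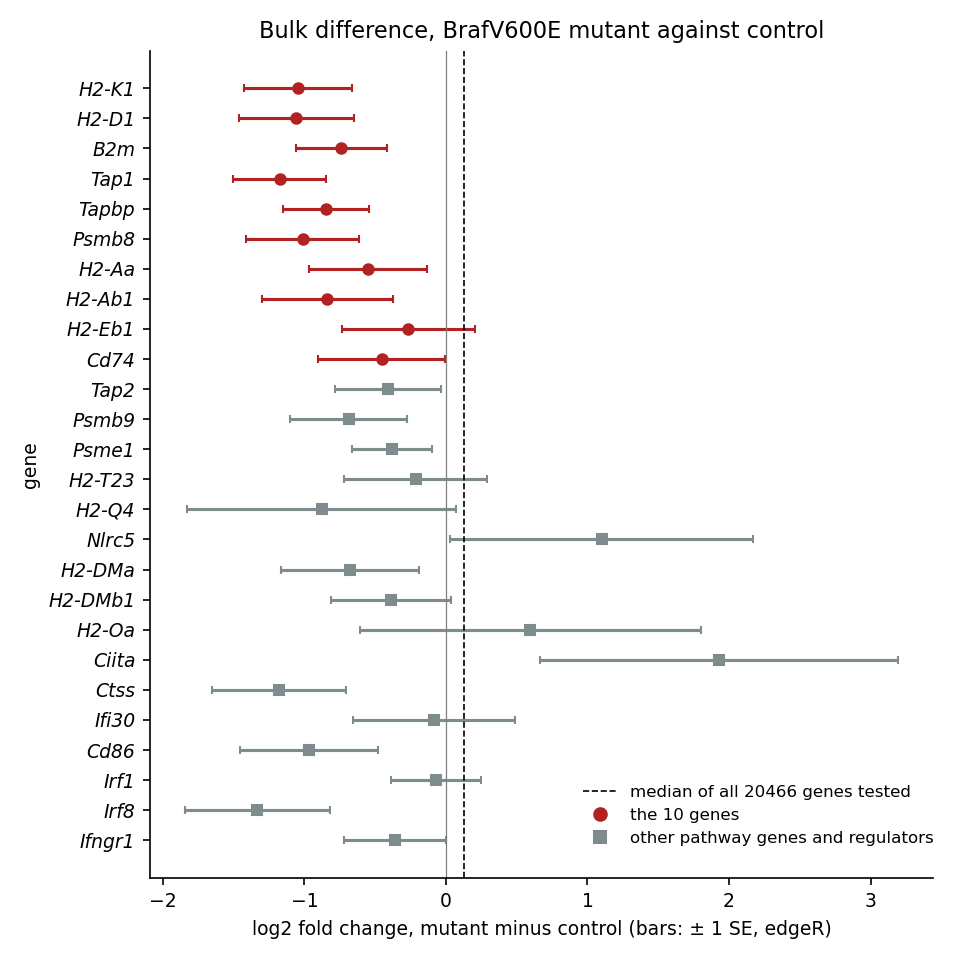
Log2 fold change, mutant minus control (x axis), for the 10 genes (circles) and 16 named pathway genes and regulators (squares). Bars are ± 1 SE, derived from the F statistic of edgeR's test. The dashed line is the median of all genes tested (0.13). All 10 genes lie left of the line, and Ciita and Nlrc5 lie right of it with the widest errors among named genes beside H2-Oa and H2-Q4.

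Markers of several of the cell types that carried these genes in the single-cell library also had other levels in mutant than in control libraries. Macrophage or microglia markers were lower in mutants for 10 of 10 genes (3 with an unadjusted p under 0.05, median log2 fold change -0.90), with a summed level of 1271 to 3959 CPM in controls and 797 to 1853 in mutants. Border macrophage markers summed to 138 to 216 and 44.7 to 77.0 CPM. VLMC markers summed to 1225 to 3044 and 499 to 932 CPM, and endothelial markers to 345 to 529 and 102 to 187 CPM. B-cell markers summed to 37.9 to 168 and 18.3 to 33.5 CPM. Of these 5 sums only the first overlapped between the groups. By gene, 6 of 7 border macrophage, 5 of 7 VLMC, 8 of 9 endothelial and 3 of 5 B-cell markers tested were lower. Groups did not overlap for 3 VLMC and 4 endothelial markers, but did for each border macrophage and B-cell marker tested. The sum of neutrophil markers was lower without overlap too (24.99 to 202 and 6.04 to 20.9 CPM), and 7 of 8 oligodendrocyte markers were lower at an unadjusted p under 0.05. The sums of OPC markers (260 to 579 and 795 to 2115 CPM) and astrocyte markers (655.5 to 1102 and 1437 to 1788 CPM) had the opposite direction, without overlap. The sums of microglia markers (1054 to 1624 and 1322 to 1415 CPM), NK- or T-cell markers (19.8 to 37.7 and 20.7 to 54.9 CPM) and dendritic cell markers (29.0 to 32.4 and 29.6 to 47.5 CPM) overlapped. Only 3 of 8 NK- or T-cell markers tested were lower (median log2 fold change 0.98), and 4 of 7 dendritic cell markers (-0.15). In each of these lists groups did not overlap for 1 marker, which was higher in mutants, as for 5.83% of all genes. By gene, 5 of 7 microglia markers were lower and 1 higher at an unadjusted p under 0.05 (edgeR). Their median log2 fold change was -1.23. Groups did not overlap for 2 lower and 1 higher microglia marker, as for 3.18% and 5.83% of all genes. None of these marker genes passed adjustment by edgeR, and their part in the lower class I values was not tested.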

How the data were processed

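The authors pooled the ME of 10 mice into 1 library of Chromium 3' v2 chemistry and deposited raw UMI counts per gene and cell, made with Cell Ranger (version 2.0.1 per the submitters' processing notes, where the methods name a later release, builds GRCm38 and mm10). For bulk, they deposited raw read counts per Ensembl gene from Smart-seq2 libraries without UMIs. Their aligner and counter are not given in the sources used here, and DESeq2 is listed with no role. The counting mode and strand setting are likewise not given, so near-identical H2 genes remain uncertain. The members and lists were chosen with earlier results of these data known.

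Bulk counts were tested on all genes with edgeR 4.0.16 (TMM, filter on low counts by group, quasi-likelihood test, no covariate, adjusted p under 0.05 by Benjamini-Hochberg). DESeq2 1.42.0, limma-voom 3.58.1, other scalings and filters, a replicate block and leaving out each library were alternatives. Of the bulk identifiers, 27645 took symbols from the single-cell gene table, and 0 sample columns were left unused. Cells were clustered in Seurat 5.3.0 (4808 variable genes, 20 components, resolution 0.8), leaving out the 10 genes and their pathway. Scrublet, run through scanpy 1.11.5, called 3 of 990 cells as doublets, which were kept in the main values. Naming a cluster took at least 3 markers reaching 3-fold the CPM found elsewhere, but this alone did not give a name. Cluster 11 (3 of 8 astrocyte markers, with others of that list at 0 UMIs) met it and was left unnamed. Cluster 2 (103 cells, 8 of 10 tanycyte markers) also met it and was left unnamed. Values of tanycyte-like cells therefore leave out cluster 2. Levels used a pseudocount of 1 CPM on log scales. Steps were tested on simulated data with 20466 genes. The genes named are the 10 members, a fixed set of pathway genes and regulators, Rax and Braf, and the 5 genes most like each class, apart from 2 genes not reported here.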

Additional observations from a re-analysis of the deposited data

Results flagged for a closer look

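In the 4 mutant libraries, 29 genes (the members, the other named genes, Rax and Braf) were checked for a library far from the other 3, and 4 genes had one. Mutant 1 was far above the other mutants for Tapbp (233.8 against 126 to 139 CPM), Psmb8 (52.3 against 31.8 to 33.2 CPM) and Ifngr1 (160 against 85.9 to 97.7 CPM). Mutant 2 was far below the others for B2m (377 against 584 to 618 CPM). Chance would give about 1 in 20 such groups, and these genes are not independent of each other. Mutant 1 was also the mutant library with the fewest genes detected (25910). The groups of 3 controls were not checked.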

How the results depend on the processing

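All 10 genes had a negative log2 fold change in the main fit and under all 14 bulk alternatives, and none reached an adjusted p under 0.05 in any. The lowest adjusted p was 0.080 for Tap1 and 0.082 for Psmb8, both without control 1. Over all genes, 376 were called by DESeq2, 240 without a filter on low counts, 13 with at least 10 counts in every library, 3 with library sizes alone, 1 with upper-quartile scaling, and 0 by limma-voom and with the replicate block. Leaving out 1 library gave 0 to 45 called genes, with 45 without control 1 and 16 without control 3. The 6 class I genes with an unadjusted p under 0.05 became 1 to 5 when a library was left out (1 without control 2 or mutant 3, 2 without mutant 2). In these fits 2.09% to 7.38% of all genes were lower at that p, beside 3.89% in the main fit. The class I median then ran from -1.29 (without control 1) to -0.73 (without control 2), and the class II median from -0.77 (without control 1) to -0.25 (without mutant 2). Cd74 was at -0.05 without control 3 and H2-Eb1 at -0.0012 without mutant 2. Library sizes alone moved the median of all genes from 0.13 to 0.25, and class I to -0.87 and class II to -0.34. Replicate numbers do not pair the libraries (deviations correlated at -0.45, -0.0076 and -0.23 for numbers 1 to 3). With the number as a block, medians were -1.0 for class I and -0.70 for class II, and the adjusted p of each of the 10 genes was 0.9998.

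With 10 components, the macrophage- or microglia-like share of class II UMIs was 84.8% and of heavy chain UMIs 39.2%. Under the other clusterings both stayed within their counting intervals. Over all results, 267 alternative values kept their direction and, where tested, their side of the threshold, though some changed in size as given above, 7 counts of called genes were higher and 4 single-cell values moved. Depth limits genes with few UMIs, such as Tap1 (182), H2-Oa (46), Nlrc5 (15) and Ciita (7).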
